A study of Mus musculus with 9 samples.

Results

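Collagen genes were taken as every gene of the deposited matrix whose symbol reads Col, a number, the letter a and a number, and 44 of the 27179 genes of the matrix were members. They were grouped by the build of their proteins into 11 fibrillar, 9 network-forming, 9 FACIT (fibril-associated), 6 beaded-filament, 4 transmembrane and 2 multiplexin genes, 1 anchoring-fibril gene and 2 others. Grem1 conditional knockout mice (cKO) gave 5 libraries, genotype Lepr-CreERT;Tdtomato;Grem1fl/fl, and littermate controls with Cre alone gave 4, genotype Lepr-CreERT;Tdtomato. Both groups therefore carried the inducible Cre and the tdTomato reporter, and both received tamoxifen, which activates the Cre; age and sex of the mice are not given in the labels. Cre was driven by Lepr, the leptin receptor gene, so the floxed Grem1 alleles recombine in cells that expressed Lepr at the time of tamoxifen or in their descendants. Fibrous tissue around a tibia implant was harvested 2 weeks after surgery, lineage-negative tdTomato-positive cells were sorted, and their polyadenylated RNA was sequenced in bulk. Whether the libraries stand for separate mice is not in the labels, so the p-values reflect library-to-library spread that may in part be technical. In bulk RNA of this kind, fewer cells of a type and less RNA per cell cannot be told apart.

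Collagens are the main structural proteins of connective tissue, and each is a triple helix of 3 chains in which glycine takes 1 place in each triplet of residues. Fibrillar types form the ropes of bone, tendon and skin (types I, III and V) and of cartilage (types II and XI), while type IV builds the sheet of basement membranes and type VI a beaded web around cells. Around an implant, type I collagen is the main protein of bone matrix and of scar-like fibrous tissue alike, and type II collagen marks cartilage. Grem1 encodes gremlin 1, a secreted antagonist of bone morphogenetic proteins.

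The repeat that defines the family can be read in the coding sequences. The longest unbroken run of codons with glycine at the same place in each triplet was 216 to 344 triplets in the 11 fibrillar genes (median 338), 113 in Col9a1, and 39 to 66 in the network-forming genes, of which Col4a1 had a run of 40 at the longest and 18 separate runs of at least 10. The first 8 triplets of such a run are shown for 5 members that the results turn on. They are taken from the coding sequences of GENCODE release M21, 5′ to 3′. The glycine codon that opens each triplet stands in capitals, and further glycine codons of Col3a1 (gga and ggt) are in lower case.
Col1a1: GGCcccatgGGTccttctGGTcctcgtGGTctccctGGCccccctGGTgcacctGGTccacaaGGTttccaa
Col2a1: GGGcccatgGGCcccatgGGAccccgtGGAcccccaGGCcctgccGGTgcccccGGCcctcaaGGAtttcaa
Col3a1: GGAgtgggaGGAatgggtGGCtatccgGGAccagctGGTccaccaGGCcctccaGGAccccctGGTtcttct
Col4a1: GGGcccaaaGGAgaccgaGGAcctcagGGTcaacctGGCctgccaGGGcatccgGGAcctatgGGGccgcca
Col12a1: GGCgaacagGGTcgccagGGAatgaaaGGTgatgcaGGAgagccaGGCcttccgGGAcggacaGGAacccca

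Libraries differed in ways that bear on every value given here. Read totals recovered from the normalized counts were 76.3 to 87.2 M in cKO replicates 1 to 4, 43.5 M in cKO replicate 5, and 44.8 to 53.4 M in the controls, so that depth and genotype coincide except in cKO replicate 5. Grem1 had 83.2, 46.4, 125, 133 and 60.8 in cKO replicates 1 to 5, against 736, 517, 676 and 356 in control replicates 1 to 4, a log2 fold change of -2.72 (SE 0.431, limma adjusted p = 0.00781), and an exact two-sided permutation test gave p = 0.0159, the smallest it allows for 5 against 4. On the first principal component cKO replicate 5 (26.8) lay between the other cKO libraries (-126 to -74.1) and the controls (90.4 to 104). Lepr ranged from 1347 to 15785 in cKO libraries and from 935 to 40594 in controls, so its message was found in all 9, with a wide spread in each group. The sort was on the tdTomato label, so Lepr counts do not define the sorted cells. The 10 skeletal muscle markers summed to 69099 to 620421 in cKO libraries and to 634 to 2386 in controls, where 7 of the 10 were at 0 in at least 1 library (Myh4 and Myh2 in 3 of the 4). Endothelial markers summed to 116867 and 142609 in control replicates 1 and 3, against 4454 and 7539 in control replicates 2 and 4, and to 4173 to 8153 in cKO libraries. Xist, transcribed from the inactive X chromosome of females, was also above 0 in control replicates 1 and 3 and in cKO replicate 2 and at 0 in the other 6 libraries.

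As a family, collagens leaned lower in the knockout. Of the 44 members, all passed the filter on low values (10 or more normalized counts in 4 or more libraries), and 13 were lower and 2 higher at a limma adjusted p under 0.05, 15 of 44 in all, where 7.48% of the 15832 genes tested passed (2.87% lower and 4.61% higher). The median log2 fold change was -1.05 over the 44 collagens and -0.0039 over all genes tested. In 11 collagens every cKO library lay below every control, and in 2 every cKO library lay above, against 4.6% and 6.82% of all genes. The authors' deposited table listed 17 collagens lower and 2 higher at its adjusted p under 0.05, against 6.63% and 10.5% of the genes to which it gives one.

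The calls depended on which libraries entered. Without cKO replicate 5, 23 collagens were lower and 2 higher, against 10.1% and 12.4% of all genes, and the 15 called with all libraries were among these 25. In that fit every knockout library was deeper than every control, so genotype cannot be told apart from depth. Without cKO replicate 1, 2, 3 or 4 the numbers called were 2, 8, 10 and 0, and without control replicate 1, 2, 3 or 4 they were 1, 3, 7 and 1. Over all genes the calls also moved from library to library, with 395, 669, 579 and 377 genes called in the first 4 of these fits and 490, 470, 541 and 473 in the other 4, against 1184 with all libraries. Each of the 15 kept its sign in all 9 of these fits and passed in 1 to 5 of them. With edgeR on the recovered reads only Col11a1, Col11a2 and Col4a1 passed, all lower (1.71% of all genes were lower and 3.26% higher), and with DESeq2 17 were lower and 2 higher (6.19% and 9.98% of genes). With control replicates 1 and 3 both left out none of the 15 passed, and Col4a3 and Col26a1 did, both higher (1.77% of all genes were higher and 0.366% lower).

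**Figure D1:**
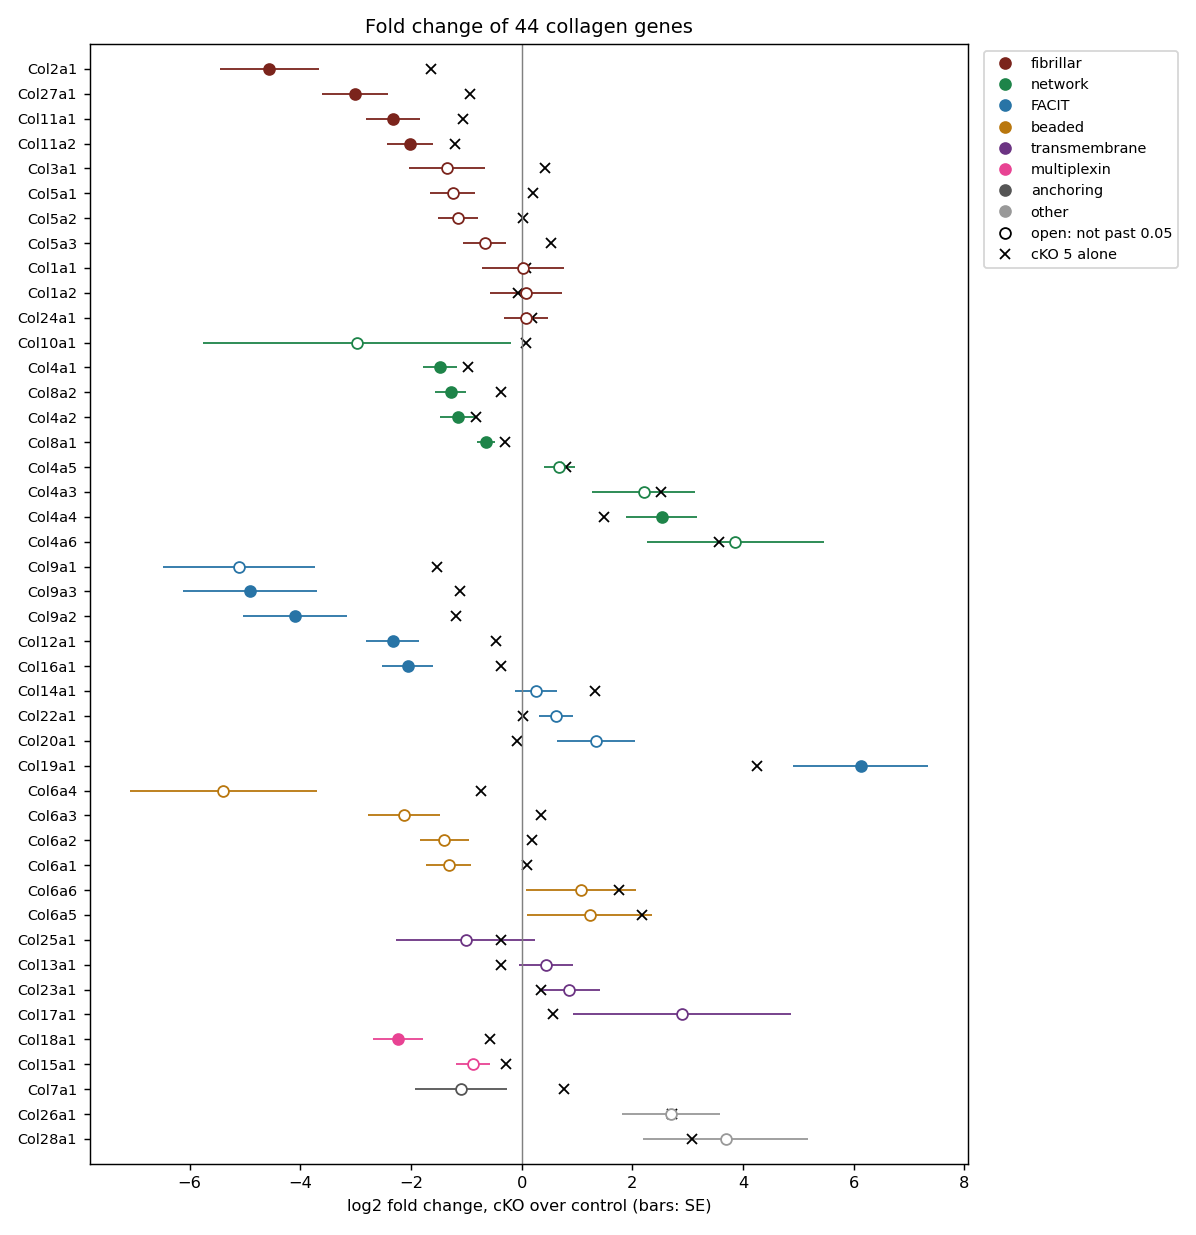
Log2 fold change (cKO over control) of the 44 collagen genes from limma on all 9 libraries, as circles with bars of 1 standard error, filled where the adjusted p is under 0.05, coloured by protein class and ordered by fold change within a class. Crosses give the fold change of cKO replicate 5 alone against the 4 controls, which for Col2a1 was -1.63 beside -4.56 with all libraries, and for Col3a1 was 0.43 beside -1.36.

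The share of collagen message was below every control in 3 of 5 knockout libraries, and its make-up differed. Collagen genes took 6.81%, 15.6%, 10.1%, 9.55% and 17.1% of all normalized counts in cKO replicates 1 to 5, against 17.8%, 20.9%, 13.8% and 21.01% in control replicates 1 to 4, or 11.8% ± 4.34 and 18.4% ± 3.42 (SD, n = 5 and 4). The ranges overlap, since cKO replicates 2 and 5 lay above control replicate 3. Of the collagen counts, Col1a1 and Col1a2 together made up 68.2% ± 17.6 in the knockout (42.3% to 87.4%) and 37.2% ± 4.44 in controls (32.0% to 42.1%), with no overlap. Col2a1 made up 2.55% ± 3.00 (0.395% to 7.82%), against 21.8% ± 4.06 (15.9% to 25.2%) in controls, again with no overlap. Without Col1a1, Col1a2 and Col3a1, the other 41 collagens held 0.987% to 4.601% of all normalized counts in cKO libraries, against 5.18% to 9.71% in controls. Per kilobase of transcript, the order of the leading members by mean normalized count was Col1a1, Col1a2, Col3a1 and Col2a1 in the knockout, and Col2a1, Col3a1, Col1a1 and Col1a2 in controls. The place of Col2a1 in the knockout rests on replicate 5, since its mean per kilobase was 42205 over all 5 libraries and 15030.0 over replicates 1 to 4, where Col6a1 (22304) and Col6a2 (19644) were higher. These shares are descriptions with no test, and the part of the muscle RNA given above in the total was not tested.

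**Figure D2:**
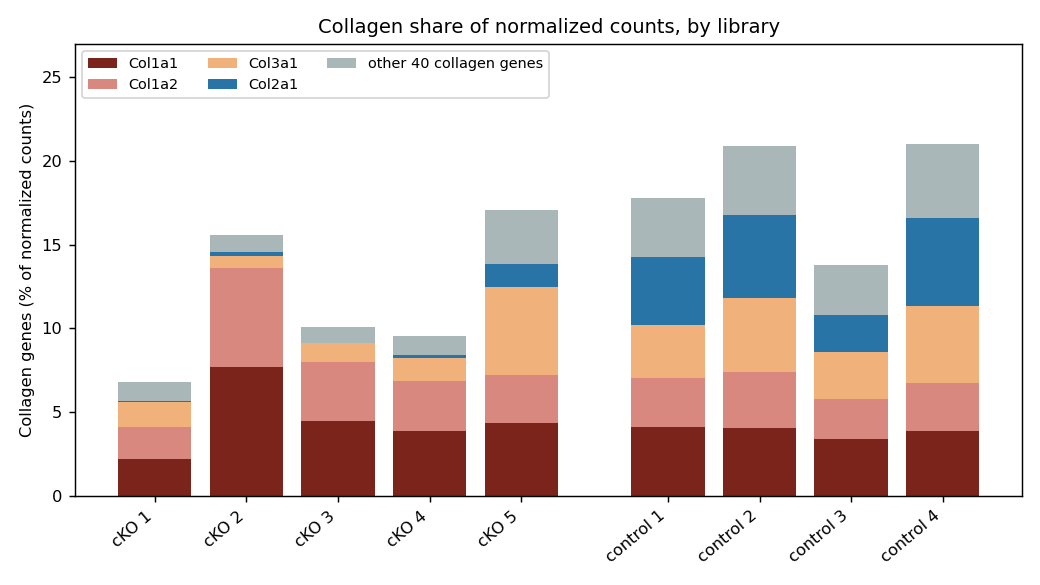
Share of all normalized counts (percent, y axis) held by collagen genes in each of the 9 libraries, the 5 cKO libraries on the left and the 4 controls on the right, split into Col1a1, Col1a2, Col3a1, Col2a1 and the other 40 genes. Col2a1 is a thin band in cKO replicates 1 to 4 and 15.9% to 25.2% of the collagen counts in the controls.

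The type I chains, which make the fibrils of bone and fibrous tissue, did not pass the test, and their levels spread widely among knockout libraries. Col1a1 (Entrez 12842), the main chain, had normalized counts of 1238854, 4522428, 2541647, 2231327 and 2485722 in cKO replicates 1 to 5, against 2479501, 2602744, 1953074 and 2455549 in control replicates 1 to 4. Col1a2 (Entrez 12843), its partner in the type I heterotrimer, had 1064396, 3471168, 1999454, 1744626 and 1678795 in the cKO libraries, against 1762110.2, 2166887, 1375396 and 1797294 in the control libraries. For both genes cKO replicate 2 was the highest and cKO replicate 1 the lowest of all 9 libraries, and the control values fell between them. The log2 fold changes were 0.02 (SE 0.743, limma adjusted p = 0.989) for Col1a1 and 0.08 (SE 0.647, adjusted p = 0.952) for Col1a2. A difference of 1 log2 unit in either direction lies within 2 of these limma standard errors of both values. The authors' own comparison gave smaller standard errors, 0.318 for Col1a1 (log2 fold change 0.13) and 0.312 for Col1a2 (0.17), so this width depends on the model. Osteoblast marker sums were likewise highest in cKO replicate 2 (690389) and lowest in cKO replicate 1 (228806), against 407511 to 542873 in controls, and the part of these cells in the type I values was not tested. The log2 ratio of Col1a1 to Col1a2 was 0.22, 0.38, 0.35, 0.35 and 0.57 in the cKO libraries, against 0.49, 0.26, 0.51 and 0.45 in the controls, with overlapping ranges.

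Type III collagen and the main type V chains were lower in cKO replicates 1 to 4 but not in replicate 5. Col3a1 (Entrez 12825), the chain of the thin fibrils of soft and healing tissue, had 828979.9, 421433, 625211, 800866 and 3029499 in cKO replicates 1 to 5, against 1939719.97, 2883216, 1601115 and 2888262 in control replicates 1 to 4. Replicates 1 to 4 lay below every control and replicate 5 above every control, and the log2 fold change was -1.36 (SE 0.687, limma adjusted p = 0.235) with all libraries and -1.80 (adjusted p = 0.0172) without replicate 5. Col5a1 (Entrez 12831) and Col5a2 (Entrez 12832) encode the type V chains that sit inside type I fibrils and set their width. Col5a1 had 62987, 47736, 52723, 66307 and 199296 in the cKO libraries, against 148009, 235699, 123458 and 210759 in the control libraries. Col5a2 had 62763, 88189, 66163, 68589 and 196895 in the cKO libraries, against 162313, 266086, 140375 and 228794 in the control libraries. In both, cKO replicates 1 to 4 lay below all controls and replicate 5 inside their range. Their log2 fold changes of -1.25 (SE 0.409, limma adjusted p = 0.086) and -1.15 (SE 0.361, adjusted p = 0.0771) did not pass with all libraries. Without replicate 5 they were -1.61 and -1.45 (adjusted p = 0.00183 and 0.003). In that fit, also used for Col3a1, depth and genotype coincide and cannot be told apart. Col5a3, the remaining type V chain, ranged from 22077 to 28442 in cKO replicates 1 to 4, 69520.2 in replicate 5, and from 27053 to 70118 in controls. The ratio of Col3a1 to Col1a1, chosen after these values were seen, was -0.58, -3.42, -2.02, -1.48 and 0.29 in the cKO libraries, against -0.35, 0.15, -0.29 and 0.23 in the controls on the log2 scale.

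The fibrillar collagens of cartilage fell, all 4 of them with no overlap between groups, where 4.6% of all genes tested lay wholly below the controls. Col2a1 (Entrez 12824), the main collagen of hyaline cartilage, had 43438, 133768, 22618, 107029 and 770230.1 in cKO replicates 1 to 5, against 2428895, 3186241, 1261372 and 3342494 in control replicates 1 to 4. The log2 fold change was -4.56 (SE 0.887, limma adjusted p = 0.0184), and the ratio of the group means was 11.9-fold lower. Replicate 5 was the knockout nearest to the controls, with a log2 difference from them of -1.63, and replicates 1 to 4 averaged -5.29. Col11a1 (Entrez 12814), a type XI chain that starts and sizes type II fibrils, had 15645, 55854, 28455, 33712 and 90573 in the cKO libraries, against 164296, 271069.7, 106419 and 267827 in the control libraries, with a log2 fold change of -2.32 (SE 0.486, adjusted p = 0.0228). Col11a2 (Entrez 12815), its partner, had 14085, 52894, 31552, 29039 and 58429 in the cKO libraries, against 128635, 175267, 79591 and 181662 in the control libraries, with a log2 fold change of -2.02 (SE 0.416, adjusted p = 0.0213). In both, replicate 5 was the highest of the knockouts, and control replicate 3 the lowest of the controls. Col27a1 (Entrez 373864), a fibrillar chain of cartilage with a short helix, had 442, 659, 267, 589 and 2827 in the cKO libraries, against 5644, 6605, 2932 and 7583 in the control libraries. Its log2 fold change was -3.01 (SE 0.589, adjusted p = 0.0184). In edgeR Col11a1 and Col11a2 passed (adjusted p = 0.0393 and 0.0315), whereas Col2a1 and Col27a1 did not (adjusted p = 0.0624 and 0.0535).

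Other cartilage genes fell as well, 6 of the 10 cartilage markers passing as lower and 0 as higher in limma, against 2.87% and 4.61% of all genes. In edgeR 0 of the 10 passed and in DESeq2 8. An unadjusted limma p under 0.05 was found for 10, and the share of all genes at that level is not given here. In the fits that left out 1 library, Sox9 passed in 1 of 9, Acan and Snorc in 2, Hapln1 and Ihh in 4 and Ucma in 9. The 10 summed to 14262, 15813, 6601, 27614 and 158611 in cKO replicates 1 to 5, against 334618, 463262, 195943 and 462728 in control replicates 1 to 4. Matn1, a matrilin of cartilage, was at 0 in 3 cKO libraries and Ihh, a growth plate signal, in 2, and neither was at 0 in a control. Among controls, replicates 2 and 4 were high and replicate 3 was lowest both in Col2a1 and in the marker sum; the part of cartilage cells in the result was not tested. The calls were lost without cKO replicate 4 or control replicate 4 for all 4 genes (Col2a1, Col11a1, Col11a2 and Col27a1), without control replicate 2 for all 4, without control replicate 1 for Col11a1, Col11a2 and Col27a1, without cKO replicate 1 for Col2a1 and Col27a1, and without cKO replicate 3 for Col11a1, with adjusted p no higher than 0.0534, 0.069, 0.0655 and 0.0569 in that order of genes. The remaining fibrillar gene, Col24a1, which in mouse is expressed in forming bone, ranged from 383 to 1496 in cKO libraries and from 495 to 1087 in controls (log2 fold change 0.08, SE 0.397, adjusted p = 0.918).

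**Figure D3:**
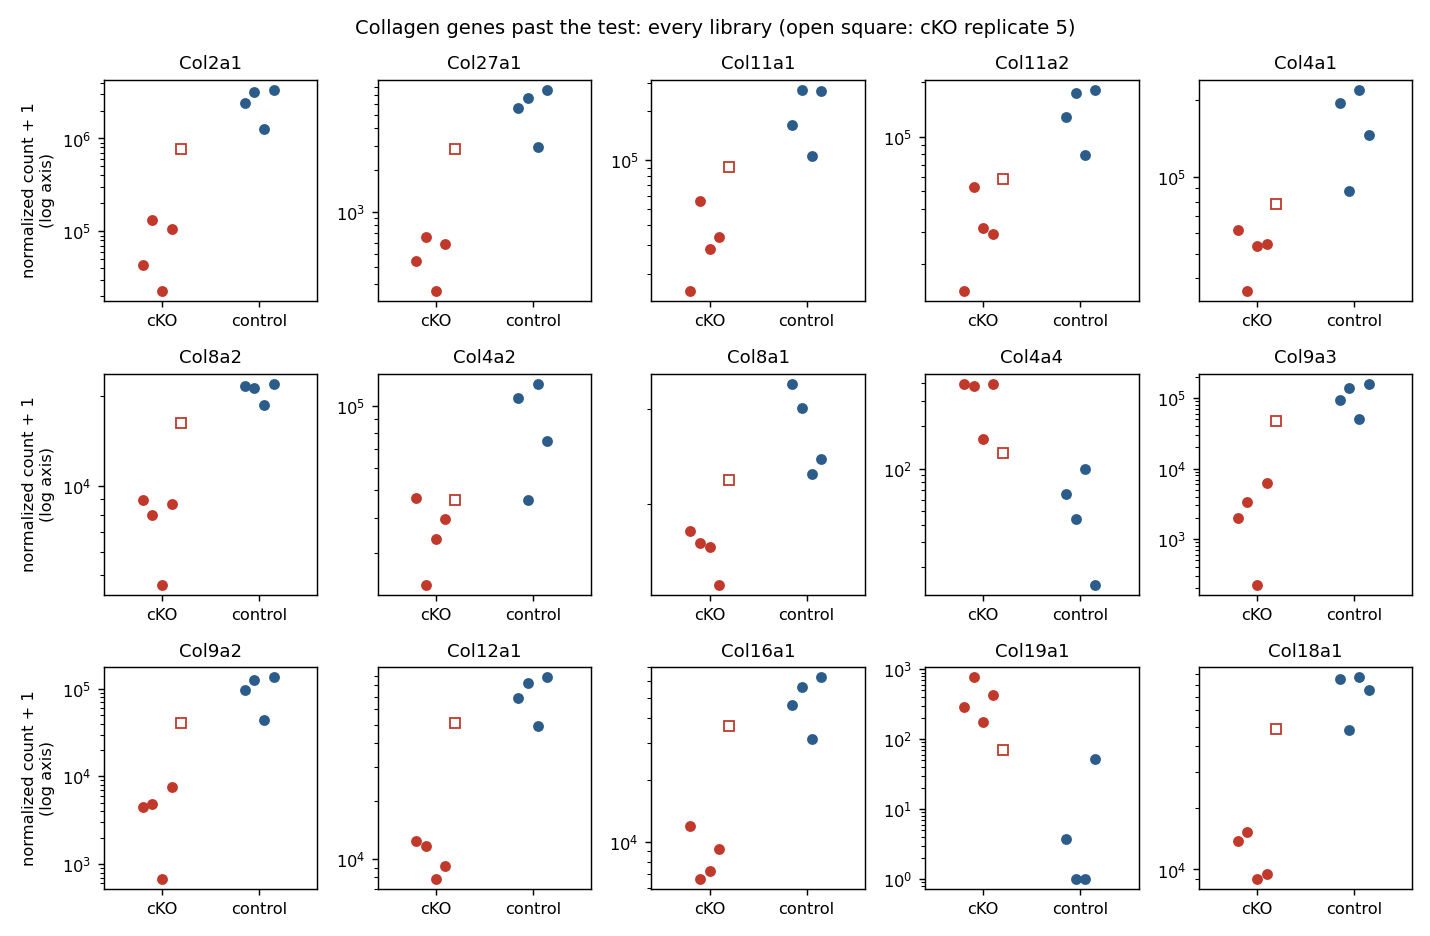
Normalized counts plus 1 (log axes, a scale for each gene) in every library for the 15 collagen genes past limma's adjusted p of 0.05, cKO on the left (red, with replicate 5 as an open square) and control on the right (blue). In Col2a1, Col27a1, Col11a1 and Col11a2 all 5 cKO libraries lie below all 4 controls, and in Col12a1, Col16a1 and Col18a1 the open square reaches into the control range.

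FACIT collagens do not form fibrils themselves but lie on their surface, and this class held both the lowest and the highest fold changes of the called members. Type IX collagen, which coats the type II fibrils of cartilage, is built from 3 chains. Col9a1 (Entrez 12839) had 2029, 2218, 66.4, 6059.96 and 25912 in cKO replicates 1 to 5, against 76734, 106483, 32639.5 and 115581 in control replicates 1 to 4. Col9a2 (Entrez 12840) had 4524, 4850.5, 677, 7608 and 40649.8 in the cKO libraries, against 96463, 126787, 43999 and 134923 in the control libraries. Col9a3 (Entrez 12841) had 2017, 3333, 221, 6349.7 and 47447 in the cKO libraries, against 94819.99, 139459, 50855 and 161357 in the control libraries. None of the 3 chains overlapped between groups, where 4.6% of all genes tested lay wholly below the controls. In all 3, cKO replicate 3 was the lowest library and replicate 5 the nearest to controls. In limma, Col9a2 (log2 fold change -4.09 with SE 0.933, adjusted p = 0.031) and Col9a3 (-4.91 with SE 1.21, adjusted p = 0.0409) passed, whereas Col9a1 (-5.10 with SE 1.37, adjusted p = 0.051) missed the threshold. Leaving out any 1 library other than cKO replicates 3 and 5 ended the calls of Col9a2 and Col9a3, with adjusted p no higher than 0.0837 and 0.0981. The size of the fall depended on the model. DESeq2 gave log2 fold changes of -3.51, -3.11 and -3.23 for Col9a1, Col9a2 and Col9a3 (adjusted p = 0.0142, 0.0214 and 0.0213). In edgeR none of the 3 passed (adjusted p = 0.106, 0.0825 and 0.133). The log2 ratio of Col9a1 to Col9a2 was -1.16, -1.13, -3.33, -0.33 and -0.65 in the cKO libraries, against -0.33, -0.25, -0.43 and -0.22 in the controls, and that of Col9a3 to Col9a2 was -1.17, -0.54, -1.61, -0.26 and 0.22 in the cKO libraries, against -0.02, 0.14, 0.21 and 0.26 in the controls. Both ratios overlapped between groups.

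Col12a1 and Col16a1, which lie on fibrils of dense connective tissue and of several other matrices, fell less. Col12a1 (Entrez 12816), an organiser of type I fibrils in tendon and periosteum, had 12451, 11696, 7871, 9177 and 50853 in cKO replicates 1 to 5, against 69157, 81902, 49239 and 88035 in control replicates 1 to 4, with a log2 fold change of -2.33 (SE 0.482, limma adjusted p = 0.0218). Col16a1 (Entrez 107581) had 11936, 6633, 7201, 9233 and 36623 in the cKO libraries, against 45971, 56520.4, 31493 and 62622 in the control libraries, with a log2 fold change of -2.06 (SE 0.458, adjusted p = 0.0284). In both genes cKO replicate 5 lay within the control range, and without it the log2 fold changes were -2.80 and -2.48. Both calls were lost without cKO replicate 1 or 4 or control replicate 1, 2 or 4, and that of Col16a1 also without cKO replicate 2 or 3 (adjusted p no higher than 0.0649 and 0.0805). Col14a1, another surface chain, ranged from 6229 to 24601 in cKO libraries and from 7361 to 12634 in controls, and did not pass.

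Col19a1 moved the other way. Col19a1 (Entrez 12823), a scarce FACIT chain known from muscle and nerve in mouse, had 288, 767, 173, 422 and 70.1 in cKO replicates 1 to 5, against 2.7, 0, 0 and 50.3 in control replicates 1 to 4. The groups did not overlap, control replicates 2 and 3 held no read, and the log2 fold change was 6.12 (SE 1.23, limma adjusted p = 0.0202), which at such low counts depends on the pseudocount; the ratio of group means was 26.0. The call was lost without cKO replicate 1 or 4 or control replicate 1, 2 or 3 (adjusted p no higher than 0.0584). In limma 10 of 10 skeletal muscle markers and 6 of 8 Schwann cell markers were higher, against 4.61% of all genes tested. In edgeR 9 and 5 of them passed. The Schwann cell markers summed to 57988 to 135520 in cKO libraries and 21712 to 28451 in controls. Both lists had sums above those of all controls in every cKO library, and the part of muscle or nerve RNA in the Col19a1 value was not tested. The remaining members of the class, Col20a1 and Col22a1, the second a chain of muscle and tendon junctions, ranged from 308 to 3241 and from 8546 to 21648 in cKO libraries, against 215 to 761 and 6052 to 10503 in controls, and neither passed (adjusted p = 0.252 and 0.218).

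Basement membrane collagen split by chain. Col4a1 (Entrez 12826) and Col4a2 (Entrez 12827) encode the ubiquitous type IV protomer of 2 kinds of chain, made in large amounts by vessel-associated cells. Col4a1 had 62105, 35589, 53689.5, 54329 and 78245 in cKO replicates 1 to 5, against 194249.9, 87664, 219304 and 145907 in control replicates 1 to 4. Col4a2 had 46806, 22991, 33422, 39652 and 46127 in the cKO libraries, against 106915, 46290.4, 120122 and 74936 in the control libraries. Control replicates 1 and 3 were the highest libraries for both, and Col4a1 did not overlap between groups whereas Col4a2 did, through control replicate 2. The log2 fold changes were -1.47 for Col4a1 (SE 0.305, limma adjusted p = 0.0219) and -1.16 for Col4a2 (SE 0.308, adjusted p = 0.0493). Control replicates 1 and 3 also held the high endothelial marker sums and were the only controls with Xist detected. These 2 traits cannot be told apart in a fit that leaves out both libraries. Without control replicates 1 and 3 the log2 fold changes were -1.04 and -0.69, and neither passed (adjusted p = 0.153 and 0.280). None of the other called collagens passed in that fit either, and the part of endothelial cells in the type IV values was not tested. The calls of both were also lost without cKO replicate 1, 3 or 4 or control replicate 1, 3 or 4, and that of Col4a2 without cKO replicate 2 or with a pseudocount of 0.5, TMM scaling or no filter on low values (adjusted p no higher than 0.0643 and 0.12). The log2 ratio of Col4a1 to Col4a2 was 0.41, 0.63, 0.68, 0.45 and 0.76 in the cKO libraries, against 0.86, 0.92, 0.87 and 0.96 in the controls, so every cKO library had less Col4a1 per Col4a2 than any control; this is a description with no test.

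The other type IV chains, which join into the protomers of specialised membranes such as those of kidney and smooth muscle, were scarce, and 1 of the 4, Col4a4, rose. Col4a4 (Entrez 12829) had 398, 380.3, 161, 395 and 127 in cKO replicates 1 to 5, against 64.9, 42.8, 98 and 14 in control replicates 1 to 4, without overlap, and a log2 fold change of 2.53 (SE 0.645, limma adjusted p = 0.0446). Its call was lost without any 1 library other than cKO replicate 5 (adjusted p no higher than 0.111). Col4a3, Col4a5 and Col4a6 did not pass (log2 fold changes 2.21, 0.68 and 3.86, adjusted p = 0.158, 0.153 and 0.153). They ranged from 83.5 to 446, 725 to 1846 and 84.1 to 246 in cKO libraries, against 11.04 to 334, 639 to 1145 and 0 to 145 in controls. All 4 scarce chains thus had positive fold changes and the pair of abundant chains negative ones.

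Type VIII collagen, a short-chain network of vessel walls and of the eye's Descemet membrane, fell in both of its chains. Col8a1 (Entrez 12837) had 17822, 16935, 16697, 14189.99 and 22129 in cKO replicates 1 to 5, against 33353, 30129, 22732 and 24244 in control replicates 1 to 4, with no overlap and the smallest fold change of the called members, -0.65 (SE 0.161, limma adjusted p = 0.0413). Col8a2 (Entrez 329941) had 8950.4, 7953, 4643, 8698 and 16225 in the cKO libraries, against 21582, 21388, 18714 and 22043 in the control libraries, with no overlap and a log2 fold change of -1.28 (SE 0.285, adjusted p = 0.0284). Replicate 5 was the knockout nearest to the controls in both. Leaving out any 1 library other than cKO replicate 5 ended the call of Col8a1, and any other than cKO replicates 3 and 5 that of Col8a2 (adjusted p no higher than 0.104 and 0.0765). The log2 ratio of Col8a1 to Col8a2 was 0.99, 1.09, 1.85, 0.71 and 0.45 in the cKO libraries, against 0.63, 0.49, 0.28 and 0.14 in the controls, and the ranges overlapped. Col10a1, the collagen of hypertrophic cartilage and the last network member, had 234, 301, 0, 47.7 and 614 in the cKO libraries, against 7708, 10380.4, 0 and 1409 in the control libraries. With a library at 0 in each group and a wide spread among controls, its log2 fold change of -2.98 (SE 2.78, adjusted p = 0.523) did not pass.

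The start region of Col8a1 is shown for its GC boxes, a motif counted over the family. The 250 bases before the RefSeq start of 35 collagen genes were searched on both strands, and GGGCGG, the GC box bound by Sp1-type factors, was present in 21 of them (60%), against 32.9% of 27025 promoters of all genes. For TATAAA the shares were 14.3% and 12.97%, for CCAAT 34.3% and 34.5%, and for the letters ACAAAG and AACAAT, cores of SOX-type motifs, 11.4% and 16.5%, and 2.86% and 9.65%. These are descriptions: GC content was not matched, and a match is not a bound site. The Col8a1 window (RefSeq, GRCm38.p6, chr16:57754738-57754987, minus strand, no annotated exon within it) is printed 5′ to 3′ as 1 of the members with 4 GC boxes, which stand in capitals in the form they take on this strand, CCGCCC.
Col8a1: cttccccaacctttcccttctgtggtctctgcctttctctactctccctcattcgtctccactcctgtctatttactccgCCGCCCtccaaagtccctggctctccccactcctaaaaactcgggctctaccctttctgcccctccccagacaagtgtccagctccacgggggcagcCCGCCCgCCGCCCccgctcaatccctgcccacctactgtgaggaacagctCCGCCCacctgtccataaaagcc

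The main beaded-filament chains were lower in cKO replicates 1 to 4, and replicate 5 lay with the controls. Col6a1 (Entrez 12833) and Col6a2 (Entrez 12834) join Col6a3 (Entrez 12835) in the type VI filament, which anchors cells to the surrounding matrix. Col6a1 had 112869, 74041, 76303, 102567 and 305400.3 in cKO replicates 1 to 5, against 243872, 359809, 219232 and 350629 in control replicates 1 to 4. Col6a2 had 97042, 63813, 59894, 89544 and 297913 in the cKO libraries, against 233814, 321326, 197827 and 320595 in the control libraries. Col6a3 had 29694, 18325, 15737, 32026 and 195009 in the cKO libraries, against 133932, 184033, 103625 and 215764 in the control libraries. In all 3 genes cKO replicates 1 to 4 lay below every control and replicate 5 within the control range. Of the 6 beaded-filament genes, 0 passed with all libraries in limma and edgeR and 1 in DESeq2. With 7.48% of all genes tested past limma's threshold, 0 of 6 is near that share. An unadjusted limma p under 0.05 was found for 4, and the share of all genes at that level is not given here. For Col6a1, Col6a2 and Col6a3 the log2 fold changes were -1.32, -1.40 and -2.12 (SE 0.412, 0.444 and 0.646, limma adjusted p = 0.0766, 0.0798 and 0.0713). Without replicate 5 all 3 passed in limma, with log2 fold changes of -1.67, -1.79 and -2.74 (adjusted p = 0.00175, 0.00139 and 0.000616). In that fit 10.1% of all genes were lower, and depth and genotype coincide and cannot be told apart. Replicate 5, at the depth of the controls, differed from them by 0.09, 0.18 and 0.35 on the log2 scale. The ratio of Col6a1 to Col6a2 was 0.22, 0.21, 0.35, 0.20 and 0.04 in the cKO libraries, against 0.06, 0.16, 0.15 and 0.13 in the controls on the log2 scale. The ratio of Col6a3 to Col6a2 was -1.71, -1.80, -1.93, -1.48 and -0.61 in the cKO libraries, against -0.80, -0.80, -0.93 and -0.57 in the controls, so that cKO replicates 1 to 4 had less Col6a3 per Col6a2 than any control and replicate 5 did not.

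Col6a4 (Entrez 68553), an alternative to the Col6a3 chain, had 0, 0, 80, 0 and 169 in cKO replicates 1 to 5, against 227, 415, 174 and 381 in control replicates 1 to 4, below the controls in every knockout. Its log2 fold change of -5.39 (SE 1.69, limma adjusted p = 0.0772) rests on 3 knockout libraries at 0 and did not pass. Col6a5 and Col6a6, the other alternative chains, ranged from 23.1 to 156 and from 24.4 to 643 in cKO libraries, against 2.79 to 222 and 50.3 to 295 in controls (adjusted p = 0.513 and 0.519).

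Of the 2 multiplexins, basement membrane collagens that carry heparan sulfate or chondroitin sulfate chains, 1 fell. Col18a1 (Entrez 12822), whose end fragment is endostatin, had 13729, 15278, 8998, 9483 and 48482 in cKO replicates 1 to 5, against 85745, 48293, 86959 and 75337 in control replicates 1 to 4. The log2 fold change was -2.23 (SE 0.449, limma adjusted p = 0.0204), with an overlap of cKO replicate 5 and control replicate 2. The call was lost without cKO replicate 1 or 4 or control replicate 1, 3 or 4 (adjusted p no higher than 0.0566). Col15a1 (Entrez 12819) had 6996, 7300.3, 3645, 6130.04 and 9817 in the cKO libraries, against 16136, 7739, 17099 and 9279.7 in the control libraries. Here too control replicates 1 and 3 were highest. The log2 fold change of Col15a1, -0.88 (SE 0.314, limma adjusted p = 0.108), did not pass with all libraries. It was -1.03 (adjusted p = 0.0444) without cKO replicate 5, a fit in which depth and genotype coincide.

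Of the 4 transmembrane collagens, 0 passed in limma, edgeR or DESeq2, and 0 had an unadjusted p under 0.05. For so few genes, 0 calls is near the 7.48% of all genes tested that passed in limma. Col13a1 (Entrez 12817), found at cell adhesion sites and the neuromuscular junction, had 1364, 3544, 2735, 1539 and 1046 in cKO replicates 1 to 5, against 2249.6, 1178, 2418 and 528 in control replicates 1 to 4. Col23a1 (Entrez 237759) had 2531, 331, 909, 2202 and 735 in the cKO libraries, against 426, 839, 564 and 542 in the control libraries. Their log2 fold changes were 0.44 (SE 0.495, limma adjusted p = 0.596) and 0.86 (SE 0.55, adjusted p = 0.344). Col17a1, the hemidesmosome collagen of epithelia, and Col25a1, a neuronal chain, ranged from 5.38 to 1226 and from 2.89 to 530.2 in cKO libraries, against 0 to 147 and 124 to 339 in controls. Col7a1 (Entrez 12836), which forms the anchoring fibrils under epithelia, had 79.5, 12.1, 92.2, 26.7 and 204 in the cKO libraries, against 151, 99.3, 58.1 and 226 in the control libraries (log2 fold change -1.09, SE 0.828, adjusted p = 0.427).

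Col26a1 (Entrez 140709) had 409, 605, 572, 466 and 513 in cKO replicates 1 to 5, against 127, 13.8, 568 and 33.5 in control replicates 1 to 4, and Col28a1 (Entrez 213945), known from the glial cells of peripheral nerve in mouse, had 828, 1476, 176, 733 and 370.3 in the cKO libraries, against 286, 214, 60.3 and 0 in the control libraries. Both had positive log2 fold changes, 2.70 (SE 0.888, limma adjusted p = 0.086) and 3.69 (SE 1.49, adjusted p = 0.145), and neither passed. For Col26a1 the cKO values lay close together, and control replicate 3 lay among them while the other 3 controls lay below.

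Within the knockout group, cKO replicate 5 differed from the other 4 libraries. It lay inside the control range for 25 of the 44 collagens, near the 53.1% of all genes tested, so this count is not particular to collagens. Col2a1, Col27a1 and the type IX and XI chains lay below all controls in it, as did Col4a1 and both type VIII chains, whereas Col3a1, the type V chains, Col6a1, Col6a2, Col6a3, Col12a1, Col16a1 and Col18a1 did not. With replicates 1 to 4 alone, 21 collagens lay wholly below the controls and 2 wholly above, against 12.3% and 15.2% of all genes. Set by itself against the 4 controls, replicate 5 gave 0 collagens past the limma threshold and 2 at an unadjusted p under 0.05, against 0.524% of all genes past it, in a fit that takes its error from the controls, and the median log2 difference was 0.05 over collagens. Its depth (43.5 M reads) was close to that of the controls, so the difference between it and the other knockouts cannot be told apart from depth or from whatever else went with the deeper libraries.

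**Figure D4:**
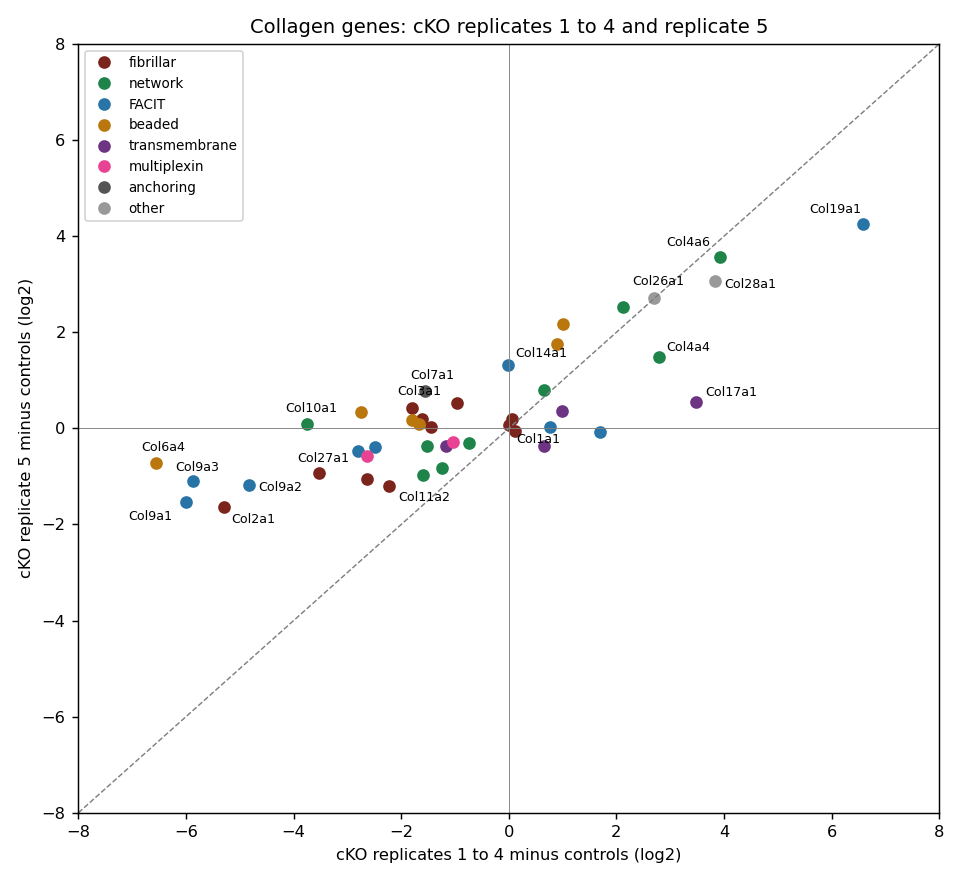
Each point is 1 of the 44 collagen genes, with the mean log2 difference of cKO replicates 1 to 4 from the controls on the x axis and that of cKO replicate 5 on the y axis (log2 of normalized count plus 1), coloured by class; the dashed line marks equal differences. Both axes share the same 4 control libraries. The genes far to the left, such as Col9a1, Col9a3 and Col2a1, lie below 0 on both axes but far above the dashed line, since replicate 5 was nearer the controls (-1.63 for Col2a1, against -5.29).

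**Figure D5:**
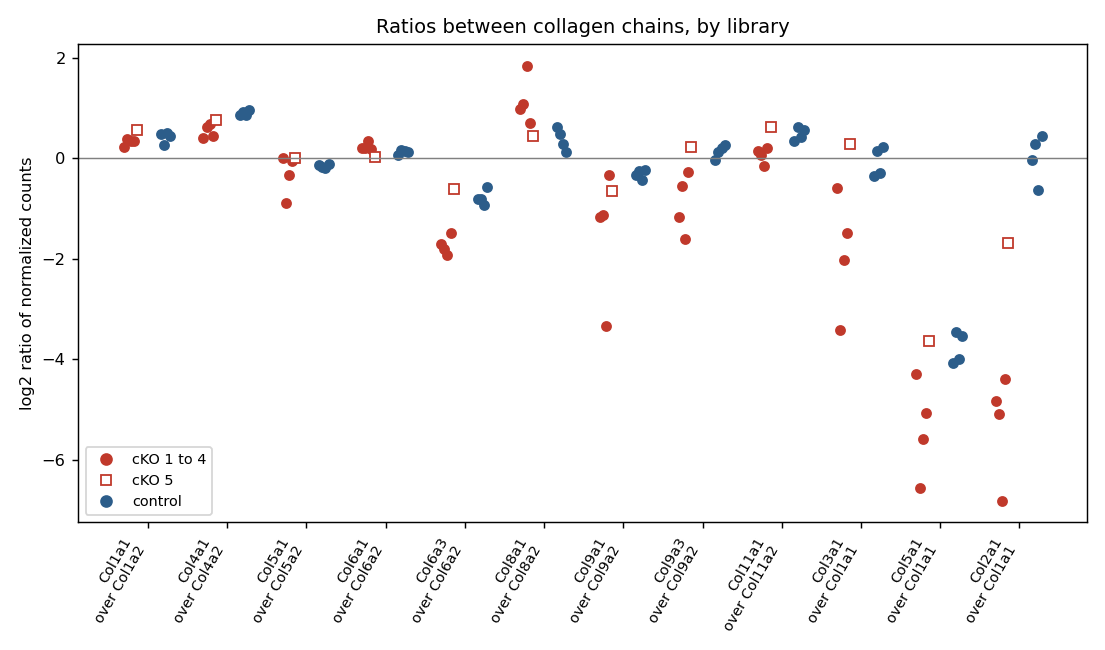
Log2 ratios of normalized counts between collagen chains in every library, cKO on the left of each pair (red, replicate 5 as an open square) and control on the right (blue). Col1a1 over Col1a2 stays between 0.22 and 0.57 in all libraries, whereas Col2a1 over Col1a1 averages -4.56 in cKO and 0.02 in controls without overlap.

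Ratios to Col1a1, the main type I chain, do not depend on the library total. Col5a1 to Col1a1 and Col2a1 to Col1a1, chosen after the values were seen, averaged -5.03 and -4.56 on the log2 scale in the knockout, against -3.76 and 0.02 in controls, and of these the second did not overlap. The remaining ratios of chain partners, Col5a1 to Col5a2 (means -0.25 and -0.15) and Col11a1 to Col11a2 (means 0.19 and 0.49), overlapped between cKO and control.

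Before they leave the cell, new collagen chains are hydroxylated and glycosylated. Of the 13 genes for hydroxylation and glycosylation, 6 were lower and 0 higher, against 2.87% and 4.61% of all genes tested, with a median log2 fold change of -1.02. P3h1, the prolyl 3-hydroxylase that works on type I and type II chains, had 3213, 4795, 4505, 3326 and 8291 in cKO replicates 1 to 5, against 10779, 13654, 9277 and 13239.8 in control replicates 1 to 4 (log2 fold change -1.35, SE 0.264, limma adjusted p = 0.0184). P3h2, a relative that acts on type IV chains among others, had 3468, 2319, 1222, 2938 and 4563 in the cKO libraries, against 7243, 9165, 8679 and 7497 in the control libraries (-1.61, SE 0.32, adjusted p = 0.0196). Plod1, a lysyl hydroxylase of the helix, had 15575, 11946, 13849.5, 14923 and 24991 in the cKO libraries, against 30424, 37321, 26149.5 and 34405 in the control libraries (-1.02, SE 0.207, adjusted p = 0.0211). For these 3 enzymes the groups did not overlap, where 4.6% of all genes tested lay wholly below the controls. The call of P3h1 was lost without cKO replicate 4 or control replicate 2 or 4 and that of P3h2 without cKO replicate 4 or control replicate 2 or 3. That of Plod1 was lost without cKO replicate 1, 3 or 4 or control replicate 1, 2 or 4 (adjusted p no higher than 0.0555, 0.0565 and 0.0625 in the order of the 3 enzymes). The other 3 that fell were P3h4, which works with the lysyl hydroxylases, Plod2, the lysyl hydroxylase of the chain ends, and Colgalt1, which adds galactose to hydroxylysine. Of these, P3h4 passed in 3 of the 9 fits that left out 1 library, and Plod2 and Colgalt1 only in the fit without cKO replicate 5 (adjusted p up to 0.0808, 0.0930 and 0.0988). In edgeR, Plod2 (adjusted p = 0.0676) and Colgalt1 (adjusted p = 0.0522) did not pass.

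In the steps that follow, single genes passed, and a list with 1 call of 11 or 15 is near the share of all genes called (7.48%). Of 11 tested genes for folding and export, 1 was lower, Fkbp10, a prolyl isomerase of the endoplasmic reticulum (log2 fold change -0.91, SE 0.175, limma adjusted p = 0.0176). Of 15 for propeptide removal and fibril assembly, 1 was lower, Bgn (biglycan, a small proteoglycan that binds fibrils), which ranged from 55243 to 137097 in cKO libraries and from 127429 to 183390.2 in controls (-1.17, adjusted p = 0.0382). Of 5 crosslinking enzymes, 1 was lower, Loxl3, a lysyl oxidase (-1.80, adjusted p = 0.0388). Of 12 collagen receptors 2 were lower, the integrin chain Itga1 (-1.001, adjusted p = 0.00816) and Cspg4, a proteoglycan that binds type VI collagen (-1.23, adjusted p = 0.0247). Of 9 collagen-degrading proteases 0 passed in limma, 0 in edgeR and 1 in DESeq2, and 2 had an unadjusted limma p under 0.05. Mmp14, a membrane collagenase, came nearest (-1.31, adjusted p = 0.063). Itga1 passed in all 9 fits that left out 1 library, Fkbp10 in all but those without control replicate 2 or 4 (adjusted p no higher than 0.0539), Cspg4 in 3, and Bgn and Loxl3 only in the fit without cKO replicate 5 (adjusted p up to 0.0740, 0.0978 and 0.100 for Cspg4, Bgn and Loxl3). Median log2 fold changes of these 5 lists were -0.41, -0.63, -0.50, -0.64 and -0.72.

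Among 13 transcription factors known to act on collagen genes, 1 was lower and 2 higher, with a median log2 fold change of 0.13. Sox9, which drives Col2a1, Col11a2 and Col9a1 in cartilage and also counts among the cartilage markers, had 6853, 5165, 4871, 7381 and 17153 in cKO replicates 1 to 5, against 19329, 24076, 17110.03 and 21677 in control replicates 1 to 4 (log2 fold change -1.47, SE 0.327, limma adjusted p = 0.0285). Cebpb (0.94, adjusted p = 0.0367) and Egr1, an early-response factor of fibroblasts (1.62, adjusted p = 0.0405), were higher. Each of the 3 passed only without cKO replicate 5 among the fits that left out 1 library, with adjusted p up to 0.0773, 0.0941 and 0.103 for Sox9, Cebpb and Egr1. Sox5 and Sox6, the cartilage partners of Sox9, had log2 fold changes of -0.79 and -0.91 and did not pass, nor did Sp7, Runx2, Scx or Mkx, of which Sp7 also counts among the osteoblast and Scx and Mkx among the tendon markers. Over all genes tested, 2.87% were lower and 4.61% higher. Of the marker lists not yet given, pericyte and smooth muscle markers had 2 of 8 lower (Mcam and Cspg4, the second also among the receptors). The 8 summed to 66542 to 99819 in cKO libraries and 102275 to 154235 in controls. The other 6 were not called, with positive log2 fold changes in Kcnj8 (1.08), Abcc9 (0.23) and Notch3 (0.03) and negative ones in Myh11, Rgs5 and Acta2. Macrophage markers had 1 of 8 lower (Mrc1). The 8 summed to 108136 in cKO replicate 2, 4852 to 15794 in the other knockouts and 26595 to 59965 in controls. Endothelial markers had 2 of 8 lower (Flt1 and Cldn5). LEPR stromal markers had 1 of 5 higher, Pdgfra, a receptor for platelet-derived growth factor (log2 fold change 1.08, limma adjusted p = 0.0229). The other 4 were not called (Pdgfrb -0.49, Kitl -0.74, Cxcl12 -0.24 and Lepr 0.07), and the median of this list was -0.24. The sort was meant to remove cells with blood lineage markers, and how completely it did so was not tested. Ptprc, a blood cell gene among the macrophage markers, ranged from 80 to 3674 in cKO libraries and from 1245 to 1798 in controls. Of 8 osteoblast and 6 tendon markers 0 passed in limma and edgeR, 2 and 1 in DESeq2, and 2 and 1 had an unadjusted limma p under 0.05. Over all 16 lists 40 genes passed, and 15 to 79 passed in the fits that left out 1 library, with the lowest count without cKO replicate 4 and the highest without cKO replicate 5.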

How the data were processed

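The deposited values are normalized counts per gene, a signal in which the authors divided gene counts by 1 size factor per library. STAR, featureCounts, DESeq2 and mm39 are listed without versions per the submitters' processing notes; no source used here gives the annotation or strand setting. Per the file headers, the authors' table of their own comparison holds mean signal, log2 fold change, a test score and p-values; it is quoted only by name. Dividing by the smallest value above 0 in each library recovered whole reads (within 0.01 of a read, except 3 values of 1 gene), which gave depth and the count tests.

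The test was limma 3.58.1 (lmFit and trended eBayes in R 4.3.3) of log2-transformed normalized counts with 1 added, on 15832 genes with at least 10 in at least 4 libraries, two-sided, Benjamini-Hochberg, threshold 0.05. A fold change of a low gene on this scale depends on the 1 added and on libraries at or near 0, and can err either way. Beside DESeq2 it was larger for Col6a4 (-5.39 against -2.59) and Col19a1 (6.12 against 4.70). It was smaller for Col6a6 (1.07 against 1.19). Abundant members could differ as well, as in Col2a1 (-4.56 against -3.57) and Col9a3 (-4.91 against -3.23). In Col4a1 the 2 were close (-1.47 against -1.51). The test was tried first on simulated data. Alternatives (edgeR 4.0.16, DESeq2 1.42.0, pseudocounts of 0.5 and 5, other filters and scalings, robust variances, a replicate block, leaving out libraries) are in the closing section. Leaving out control replicates 1 and 3 together, and the ratios of Col3a1, Col5a1 and Col2a1 to Col1a1, were chosen after seeing the data. Members and lists were chosen with earlier results of these data known. Counts at an unadjusted p under 0.05 stand without the share of all genes at that level, so they cannot be set against it.

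Values in every library are given for collagens past the test, the 2 most abundant of each class, those whose groups did not overlap and partner chains; from each list up to 3 passing genes by p are named, or the nearest. Genes such as Sox5 or Sox6 named beyond this were chosen after their values were seen. Per-kilobase values use the transcript with the longest coding sequence (GENCODE M21). Reads of overlapping genes (the largest shared part of exons was 6.07%, in Col9a3) cannot be assigned with certainty.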

Additional observations from a re-analysis of the deposited data

Results flagged for a closer look

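In 114 groups of libraries (44 genes, the collagen share and 12 chain ratios, cKO and control), 7 had 1 library whose gap to the next was a large part of the whole range (Dixon's test on log2 values), where chance alone gives about 1 in 20 groups. All 7 were in the cKO group. In 4 of them cKO replicate 5 was the high library: Col12a1 stood at 50853 in it, against 7871 to 12451 in cKO replicates 1 to 4. Col6a3 stood at 195009, against 15737 to 32026 in the other 4. Col5a1 stood at 199296, against 47736 to 66307, and Col5a3 at 69520.2, against 22077 to 28442. The other 3 were low libraries. Col6a6, an alternative type VI chain, had 24.4 in cKO replicate 3 and 396 to 643 in the other cKO libraries. Col25a1 had 2.89 in cKO replicate 4 and 189 to 530.2 in the others. The log2 ratio of Col9a1 to Col9a2 was -3.33 in cKO replicate 3 and -1.16 to -0.33 in the others.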

How the results depend on the processing

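Pseudocounts, filters, TMM and upper-quartile scaling, scaling without the collagens and robust variances left the counts of genes (1184), collagens (15) and list genes (40) called within 1.5 times, and the collagen median (-1.05) below 0. Single calls ended: Col4a2 with a pseudocount of 0.5 (adjusted p = 0.0505), TMM scaling (0.0511) or no filter (0.0611), and Col4a4, Col8a1 and Col9a3 with no filter (0.0616, 0.0530 and 0.0501). edgeR called 786 genes and 3 collagens; DESeq2 2539 genes and 69 list genes. Libraries under 60 M reads alone, which keep 1 knockout, gave 83 genes, 0 collagens and 2 list genes, and a collagen median of 0.052; signs turned there, with no gene past the test, in Col1a2 (-0.062), Col3a1 (0.43), Col5a1 (0.20), Col5a2 (0.029), Col5a3 (0.53), Col10a1 (0.085), Col20a1 (-0.085), Col6a1 (0.092), Col6a2 (0.18), Col6a3 (0.35), Col13a1 (-0.37) and Col7a1 (0.77). Without control replicates 1 and 3, 338 genes, 2 collagens and 15 list genes passed, and Col1a1 (-0.077), Col1a2 (-0.094) and Col17a1 (-0.37) turned sign. Leaving out 1 library gave 377 to 3562 genes, 0 to 25 collagens and 15 to 79 list genes. Ranges across 0 in those fits were -0.21 to 0.26 (Col1a1), -0.15 to 0.28 (Col1a2), -0.14 to 0.35 (Col24a1), -1.54 to 0.24 (Col25a1), -0.0082 to 0.49 (Col14a1) and -0.011 to 0.72 (Col13a1), and -0.161 to 0.064 for the difference in the log2 ratio of Col5a1 to Col5a2 (above 0 without cKO replicate 2). Where counts of calls moved, the cause was not tested; fewer libraries enter the fits that leave some out.

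Same-numbered libraries did not deviate together (correlations 0.07, 0.017, -0.006 and -0.011 for numbers 1 to 4), so the main fit did not treat them as pairs. With so few pairs, these correlations cannot exclude a pairing. With a replicate block, 2715 genes, 25 collagens and 66 list genes passed, and Col14a1 was -0.0082. In that fit cKO replicate 5 has no partner and does not enter the fold changes. The collagen median was -1.20 both there and in the fit without cKO replicate 5. Depth and genotype therefore coincide with the block too, and cannot be told apart. Depth of 43.5 M reads or more leaves counting error small for abundant members; for those under 100 counts it adds to the spread.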
